A study of Mus musculus with 42 samples.

Results

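The lysosomal hydrolases, membrane proteins and proton pump are a listed set of 39 genes, of which 15 encode hydrolases of glycans, 7 lipid hydrolases and lipid transfer proteins and 2 proteases. A further 4 encode membrane glycoproteins, 3 encode transcription factors or a channel, and 8 encode proton pump subunits or accessory proteins. All 39 were found by symbol in both deposited tables, among 24421 genes for whole brain and 53546 for cortex and hippocampus, and 38 had enough counts to be tested in every comparison. The exception was Atp6v0d2, a pump subunit best known from osteoclasts, which had 0 counts in 6 of 8 whole-brain, 10 of 12 cortex and 15 of 22 hippocampus libraries.

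The data are bulk RNA-seq of brain microglia (sorted CD11b+ CD45lo cells) of C57BL/6 background, in 42 libraries that form 11 groups. Hippocampus was taken at 16 weeks from 5xFAD mice and wild-type (WT) mice kept germ-free with acetate (GF+acetate, n = 4 each), germ-free (GF, n = 3 each) or specific-pathogen-free (SPF, n = 4 each). Cortex came from WT mice of the same age under GF+acetate, GF and SPF conditions (n = 4 each), and whole brain from WT GF (n = 5) and SPF (n = 3) mice aged 6 to 12 weeks (8 in the titles). By the animal numbers in the titles, 11 WT mice gave both cortex and hippocampus, so these regions are not independent sets of mice. The labels give 8 weeks of acetate for these groups, and a 4-week treatment that they tie to no library. As background, 5xFAD mice carry human transgenes with familial Alzheimer's disease mutations under the neuronal Thy1 promoter and develop amyloid plaques. A GF mouse has no bacteria of its own, whereas an SPF mouse has a normal flora free of listed pathogens.

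Lysosomes break down what microglia engulf, including myelin, dead cells and amyloid. Soluble hydrolases do the cutting in an acidic lumen, the V-type proton pump keeps that lumen acidic, and heavily glycosylated membrane proteins such as LAMP1 line the inner face. Many of these genes share a short promoter element, called CLEAR, that contains the E-box CACGTG and is bound by the transcription factors TFEB and TFE3.

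The promoter windows of the genes on which the comparisons below turn show how unevenly that E-box is spread. RefSeq windows on build GRCm38.p6, reaching from 250 bases before to 50 after the transcription start, were found for 33 of the 39 genes. CACGTG, which reads the same on both strands, was present in 11 of these 33 genes (33.3%), against 8.1% of 27025 genes with a window. The longer TCACGTG, searched on both strands and always overlapping a CACGTG, was present in 11 of 33 (33.3%), against 4.3% of all genes. Lamp1, Glb1 and Naglu are shown as called genes that hold it, and Hexa and Gusb as called genes that do not, each 5′ to 3′ in the direction of transcription with CACGTG in capitals.
Lamp1 promoter, chr8:13158911-13159210, plus strand: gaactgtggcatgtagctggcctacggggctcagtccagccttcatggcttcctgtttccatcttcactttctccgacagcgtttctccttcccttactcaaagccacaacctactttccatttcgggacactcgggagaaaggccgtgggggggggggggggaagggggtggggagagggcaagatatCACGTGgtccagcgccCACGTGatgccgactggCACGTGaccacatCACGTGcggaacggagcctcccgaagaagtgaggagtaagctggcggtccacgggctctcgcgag
Glb1 promoter, chr9:114400828-114401127, plus strand: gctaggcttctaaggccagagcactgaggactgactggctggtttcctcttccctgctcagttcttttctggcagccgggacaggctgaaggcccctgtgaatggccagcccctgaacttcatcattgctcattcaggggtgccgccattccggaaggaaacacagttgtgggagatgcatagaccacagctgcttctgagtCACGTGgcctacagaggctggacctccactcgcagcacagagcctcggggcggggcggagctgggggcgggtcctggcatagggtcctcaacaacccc
Naglu promoter, chr11:101069844-101070143, plus strand: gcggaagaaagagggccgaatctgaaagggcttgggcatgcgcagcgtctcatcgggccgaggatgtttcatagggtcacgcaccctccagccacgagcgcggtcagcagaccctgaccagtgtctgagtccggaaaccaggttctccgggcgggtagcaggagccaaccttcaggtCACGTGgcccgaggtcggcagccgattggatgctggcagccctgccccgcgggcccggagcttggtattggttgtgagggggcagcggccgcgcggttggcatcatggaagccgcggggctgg
Hexa promoter, chr9:59539290-59539589, plus strand: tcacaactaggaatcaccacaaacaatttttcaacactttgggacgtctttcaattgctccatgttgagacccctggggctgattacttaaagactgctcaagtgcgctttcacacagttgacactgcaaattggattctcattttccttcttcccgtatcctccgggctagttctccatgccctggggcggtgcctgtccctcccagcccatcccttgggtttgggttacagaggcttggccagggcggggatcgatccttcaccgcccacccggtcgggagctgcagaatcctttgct
Gusb promoter, chr5:130003000-130003299, minus strand: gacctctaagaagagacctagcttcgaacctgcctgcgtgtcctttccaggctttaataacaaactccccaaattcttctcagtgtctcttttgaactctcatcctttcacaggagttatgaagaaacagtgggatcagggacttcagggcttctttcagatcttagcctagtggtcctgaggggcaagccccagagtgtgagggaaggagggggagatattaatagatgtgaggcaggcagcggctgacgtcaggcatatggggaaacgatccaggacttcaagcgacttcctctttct
In Lamp1 the 4 matches begin 61, 45, 28 and 15 bases before the start, in Glb1 the match begins 48 bases and in Naglu 73 bases before it. The other genes with a match were Mcoln1, Atp6v0d1, Gaa, Sgsh, Lgmn, Arsa, Atp6v1a and Gla. A match describes these letters and is not evidence of binding, and the files hold no binding data.

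Total counts ran from 5743891 to 22532410 per library in hippocampus, 15790383 to 23860490 in cortex and 19329304 to 25366393 in whole brain. Libraries are named here by the animal number in the labels, as in SPF_FAD_2142. In hippocampus, SPF_FAD_2142 and WT SPF library 4 had 5743891 and 5862938 counts, and every other library had at least 15060925. Hippocampus libraries GFA_WT_518 and GF_WT_530 had 16607 and 17750 genes detected, against at least 18980 in the other deep hippocampus libraries. Levels are given in CPM, a gene's counts relative to the library total after TMM normalization, unless said to be unscaled. The 10 microglial markers summed to between 41200 and 80900 CPM across all groups. Neutrophil markers exceeded 100 CPM in SPF_FAD_2153 (258 CPM), hippocampus GF_WT_532 (227 CPM) and whole-brain GF 4 (173 CPM).

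One hippocampus library stood apart from its label. The 5xFAD library SPF_FAD_2152 had 13.2 CPM (here unscaled) of Cst7, a protease inhibitor gene of plaque-associated microglia, against 367.79 to 502.97 CPM in the other 3 libraries of its group and 9.73 to 22.68 CPM in WT SPF. It likewise had 437.68 CPM of Apoe, the lipid carrier, against 3187.34 to 6189.18 CPM in those 3 and 238.95 to 398.61 CPM in WT SPF. Its App counts, 189.74 CPM, lay near those of the other 3 (194.87 to 219.83 CPM) and above WT SPF (135.54 to 159.82 CPM), but App was as high as 217.92 CPM in a WT GF+acetate library. It is therefore called the library labelled SPF_FAD_2152, and the counts of SPF 5xFAD calls are given with and without it. Leaving it out moved the log2 difference of the members by at most 0.35 (Gla) in 5xFAD against WT SPF and in GF against SPF 5xFAD. The sign changed for 1 of 38 in the first comparison and 6 of 38 in the second. SPF 5xFAD values given once include it.

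Per kilobase of exon, the 38 tested members spanned about 3 orders of magnitude in SPF cortex, from Lgmn to Gla. In cortex SPF (n = 4), Lgmn, an asparagine-specific protease, led with a mean of 1397 CPM per kilobase, ahead of Psap (1016), precursor of the saposins that help lipid hydrolases. Then came Cd68, a macrophage membrane glycoprotein, at 693.6 CPM per kilobase, Hexa, the alpha subunit of beta-hexosaminidase, at 565.5, and Lamp1 at 505.6. The same 5 genes held the first 5 places in hippocampus SPF, where Lgmn had 1691, Psap 797.9, Cd68 712.5, Hexa 505 and Lamp1 467 CPM per kilobase. Of the transcription factors, Tfe3 had 33.71 and Tfeb 11.82 CPM per kilobase in cortex SPF, and the calcium channel gene Mcoln1 20.28.

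Atp6v0d2, which was not tested, was at 0.01697 CPM per kilobase there, from 1 library above 0. At the low end of the tested members in cortex SPF stood Galns (7.134 CPM per kilobase), Sgsh (6.779) and Gla (1.006), hydrolases of keratan sulfate, heparan sulfate and alpha-galactosyl lipids. The 7 tested pump genes lay between 8.849 (Atp6v1h) and 177.1 CPM per kilobase (Atp6ap1, an accessory subunit). Atp6v0c, which encodes the proton-carrying ring, was at 31.22 CPM per kilobase in cortex, with 1384 to 2711 counts per library. In the whole-brain table it had only 8 to 20 counts per library. The whole-brain table was deposited separately, the cause of its low counts was not tested, and the level of Atp6v0c is not compared between the tables.

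**Figure D1:**
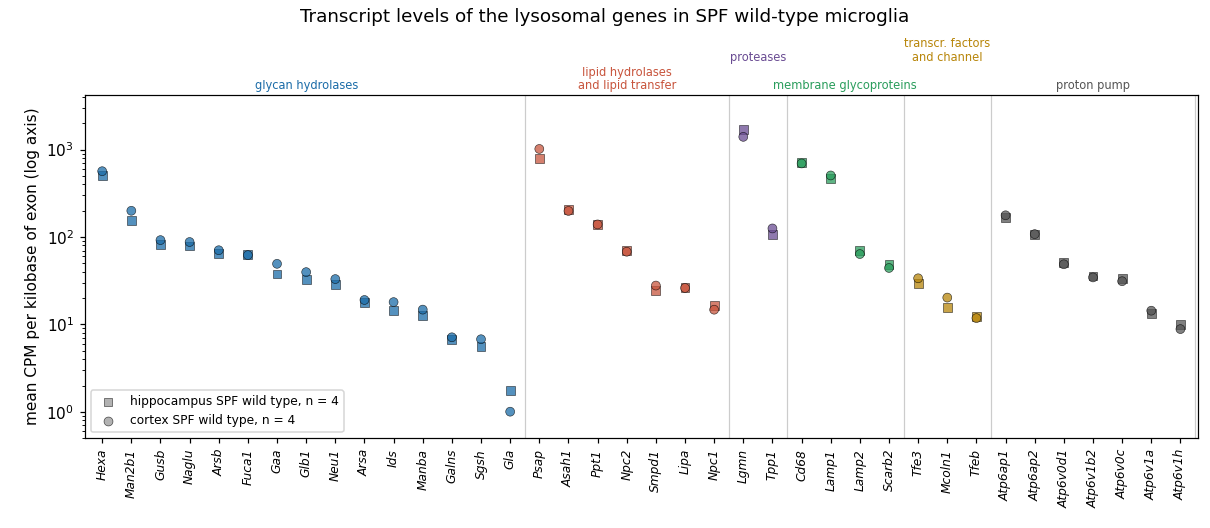
Mean level of each tested gene in SPF wild-type microglia of hippocampus (squares) and cortex (circles), n = 4 each, in CPM per kilobase of exon on a log axis, grouped and coloured by role; Atp6v0d2, at 0 in hippocampus SPF, is not drawn. Lgmn, Psap, Cd68, Hexa and Lamp1 lie highest in both regions, and Gla lies lowest.

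Whether the lysosomal genes differ in a mouse model of amyloid disease was asked in hippocampus, 5xFAD against WT, within each of 3 microbiota conditions. In GF+acetate mice, 12 of 38 genes were higher and 1 was lower in 5xFAD, against 1.83% higher and 0.674% lower of 17063 genes tested. In GF mice 6 were higher and 0 lower (0.557% and 0.199% of all genes), and in SPF mice 2 were higher and 0 lower (0.363% and 0.205%). Hexa and Gusb were higher in all 3 conditions, by edgeR's quasi-likelihood test with Benjamini-Hochberg adjustment (adjusted p under 0.05), as for all calls below. The median log2 difference of the 38 was 0.19 in GF+acetate, 0.17 in GF and 0.03 in SPF, while the median of all genes was 0.00, -0.00 and 0.01. The SPF median was 0.07 without the library labelled SPF_FAD_2152. These are 3 sets of separate libraries. In such bulk samples, more RNA per cell and more cells of a type with much of that RNA cannot be told apart.

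The members made up a larger part of all counts in 5xFAD in the GF+acetate and GF conditions. Their summed share was 1.96% to 2.07% of counts in 5xFAD GF+acetate, against 1.63% to 1.76% in WT GF+acetate. It was 1.78% to 1.98% in 5xFAD GF, against 1.61% to 1.67% in WT GF. In SPF it was 1.78% to 1.88% in 5xFAD and 1.73% to 1.79% in WT, and these ranges overlapped through the library labelled SPF_FAD_2152 (1.78%), without which 5xFAD SPF ran from 1.83% to 1.88%.

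Glycan hydrolases, the largest role, supplied more calls than any other role in each condition. In GF+acetate, 6 of 15 rose, in GF 4 and in SPF 2, and none fell. Their share called in GF+acetate, 40%, was not the highest, at 42.9% for the 7 lipid genes and 50% for the 4 membrane glycoproteins. Gusb, beta-glucuronidase, which trims heparan and dermatan sulfate, had 739.8, 733.4, 701.7 and 730 CPM in 5xFAD GF+acetate libraries, against 411.7, 326.5, 326.1 and 342.1 CPM in WT GF+acetate. It had 730.6, 633.4 and 576.9 CPM in 5xFAD GF, against 361.8, 315.3 and 378.7 CPM in WT GF. Every 5xFAD library lay above every WT library in both conditions, with a log2 difference of 1.04 (SE 0.12, adjusted p = 4.27e-05) with acetate and 0.88 (SE 0.14, adjusted p = 0.00143) in GF.

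In SPF the Gusb values were 575.4, 550.2, 377.4 and 601.8 CPM in 5xFAD and 333.8, 382.6, 409 and 360.2 CPM in WT. The third of these 5xFAD values, inside the WT range, belongs to the library labelled SPF_FAD_2152. The log2 difference was 0.51 (SE 0.12, adjusted p = 0.0471), and 0.64 (SE 0.10, adjusted p = 0.000719) without that library.

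Hexa, whose product takes part in clearing GM2 ganglioside, had 1679, 1542, 1348 and 1643 CPM in 5xFAD GF+acetate, against 975.7, 900.6, 804.1 and 951.2 CPM in WT GF+acetate. In GF it had 1436, 1176 and 1041 CPM in 5xFAD and 580.1, 654.8 and 684.2 CPM in WT. In SPF it had 1737, 1808, 1103 and 1547 CPM in 5xFAD and 957, 1049, 989.2 and 1037 CPM in WT. No 5xFAD library fell within the range of its WT group in any condition, with 1103 CPM of the library labelled SPF_FAD_2152 nearest to it. The log2 differences were 0.77 (SE 0.12, adjusted p = 0.000756) with acetate, 0.93 (SE 0.14, adjusted p = 0.00142) in GF and 0.62 (SE 0.12, adjusted p = 0.0167) in SPF. Without that library the SPF difference was 0.76 (SE 0.10, adjusted p = 0.000154).

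Galns, the sulfatase of keratan sulfate, had the highest log2 difference among the called members in GF. It had 37.24, 37.93 and 31.73 CPM in 5xFAD GF, against 10.62, 13.28 and 11.57 CPM in WT GF, a log2 difference of 1.59 (SE 0.28, adjusted p = 0.00604). With acetate it had 35.62, 34.79, 25.94 and 36.38 CPM in 5xFAD and 23.31, 12.93, 15.38 and 23.31 CPM in WT. The groups again did not overlap, yet Galns did not pass there (log2 0.82, SE 0.24, adjusted p = 0.0765), nor in SPF (log2 0.43, adjusted p = 0.601).

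Glb1, beta-galactosidase, had 191.9, 173, 167.8 and 205.3 CPM in 5xFAD GF+acetate, against 145.1, 106.5, 81.66 and 85.57 CPM in WT GF+acetate. In GF it had 176.6, 143.8 and 133 CPM in 5xFAD and 93.95, 47.26 and 78.72 CPM in WT. The genotypes did not overlap in either condition, and the log2 differences were 0.81 (SE 0.18, adjusted p = 0.0167) and 1.04 (SE 0.21, adjusted p = 0.0188). Tmppe overlaps Glb1 on the same strand, at 5.33 to 36.96 CPM over cortex and hippocampus, so reads of this pair may be split between them.

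Man2b1, lysosomal alpha-mannosidase, had 1674, 1768, 1633 and 1732 CPM in 5xFAD GF+acetate, against 1139, 1258, 1040 and 1139 CPM in WT GF+acetate. Its groups were well apart, with a log2 difference of 0.57 (SE 0.08, adjusted p = 0.000347). In GF it had a log2 difference of 0.36 (SE 0.10) and did not pass (adjusted p = 0.0817). Naglu, which removes N-acetylglucosamine from heparan sulfate, and Fuca1, alpha-fucosidase, rose in 5xFAD GF+acetate by log2 0.66 (SE 0.13, adjusted p = 0.00545) and 0.53 (SE 0.13, adjusted p = 0.0226). The other 9 glycan hydrolases passed in no 5xFAD comparison with acetate, Galns among them.

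Of the lipid hydrolases and lipid transfer proteins, 2 of 7 rose and 1 fell in 5xFAD GF+acetate, 1 rose in 5xFAD GF, and 0 passed in SPF. Npc2, which hands cholesterol to NPC1 at the lysosomal membrane, had 628.3, 638, 537.2 and 655.9 CPM in 5xFAD GF+acetate, against 355.3, 370.3, 321 and 360.7 CPM in WT GF+acetate. It had 591.7, 541.2 and 471.9 CPM in 5xFAD GF, against 304.8, 348.8 and 368.8 CPM in WT GF. All 5xFAD libraries were higher than all WT libraries in both, by log2 0.80 (SE 0.12, adjusted p = 0.000587) and 0.65 (SE 0.14, adjusted p = 0.0284).

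In SPF, Npc2 had 543.1, 651.1, 360.7 and 518.4 CPM in 5xFAD and 369.6, 410.1, 366.7 and 390.4 CPM in WT. The library labelled SPF_FAD_2152 was again the low one. With it Npc2 did not pass (log2 0.44, SE 0.12, adjusted p = 0.117), and without it Npc2 was higher by log2 0.58 (SE 0.10, adjusted p = 0.00225). Npc1, the membrane partner, had log2 differences of -0.15, -0.17 and -0.25 with acetate, in GF and in SPF, and passed in none.

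Psap had 2515, 2563, 2711 and 2446 CPM in 5xFAD GF+acetate, against 2240, 2023, 1928 and 2016 CPM in WT GF+acetate, with no overlap (log2 0.31, SE 0.08, adjusted p = 0.0331). Asah1, acid ceramidase, was the single member that fell, with 586.7, 605.5, 628.4 and 649.2 CPM in 5xFAD GF+acetate, against 852.9, 739.6, 689.2 and 724.6 CPM in WT GF+acetate. Its groups did not overlap either, and its log2 difference was -0.29 (SE 0.08, adjusted p = 0.0489). It had log2 0.01 in GF (adjusted p = 0.986) and -0.18 in SPF (adjusted p = 0.425).

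Among the membrane glycoproteins, Lamp1 and Cd68 rose in 5xFAD GF+acetate and Lamp1 rose in 5xFAD GF, while 0 of 4 passed in SPF. Lamp1 had 1702, 1660, 1566 and 1818 CPM in 5xFAD GF+acetate, against 1043, 1222, 1134 and 1221 CPM in WT GF+acetate. In GF it had 1682, 1430 and 1343 CPM in 5xFAD and 1084, 1007 and 1162 CPM in WT. The genotypes did not overlap, with log2 differences of 0.54 (SE 0.08, adjusted p = 0.000609) and 0.45 (SE 0.10, adjusted p = 0.024).

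Cd68 had 1215, 1266, 1012 and 1253 CPM in 5xFAD GF+acetate, against 847.8, 728.3, 774.2 and 998.7 CPM in WT GF+acetate, a narrow gap without overlap (log2 0.50, SE 0.10, adjusted p = 0.00759). Lamp2, the relative of Lamp1 used in chaperone-mediated autophagy, had 660.6, 783.6, 775 and 867.9 CPM in 5xFAD GF+acetate and 713.1, 736.5, 683.6 and 811.4 CPM in WT GF+acetate. These overlapped throughout (log2 0.06, SE 0.10, adjusted p = 0.859). In GF, Lamp2 had 797.6, 782.1 and 663.4 CPM in 5xFAD, against 608.4, 581.3 and 487.4 CPM in WT, and did not pass (log2 0.42, SE 0.11, adjusted p = 0.0814). Scarb2, the receptor that carries glucocerebrosidase to lysosomes, passed in none of the 3 conditions.

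The 3 regulators passed in no condition. Tfeb, whose product activates many lysosomal genes, had 61.5, 45.6, 44.87 and 46.89 CPM in 5xFAD GF+acetate, against 57.35, 69.23, 56.33 and 55.71 CPM in WT GF+acetate. It had 47.6, 30.54 and 40.66 CPM in 5xFAD GF, against 44.26, 50.51 and 56.09 CPM in WT GF, and 42.13, 57.09, 53.8 and 54.83 CPM in 5xFAD SPF, against 70.81, 75.98, 69.68 and 63.38 CPM in WT SPF. Only in SPF did the genotypes not overlap, and the log2 differences of -0.27, -0.34 and -0.43 passed in no condition (adjusted p = 0.422, 0.48 and 0.242). Tfe3 had log2 differences of -0.02, -0.03 and -0.13, and Mcoln1, the channel that releases lysosomal calcium, 0.06, 0.10 and 0.20, and these did not pass either.

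Of the proton pump, 2 of 7 tested genes rose in 5xFAD GF+acetate and 0 passed in GF or SPF. Atp6v0c had 115.2, 103.8, 96.8 and 116.9 CPM in 5xFAD GF+acetate, against 81.72, 92.35, 70.04 and 78.62 CPM in WT GF+acetate (log2 0.42, SE 0.11, adjusted p = 0.0364), without overlap. It had 96.23, 86.49 and 77.07 CPM in 5xFAD GF and 87.6, 80.61 and 98.66 CPM in WT GF, and 114.6, 120.7, 100.5 and 96.87 CPM in 5xFAD SPF and 109.2, 120.7, 110.6 and 115 CPM in WT SPF. Here the genotypes overlapped, with log2 -0.04 (adjusted p = 0.968) and -0.07 (adjusted p = 0.935). Atp6v1b2, an ATP-binding subunit, rose in 5xFAD GF+acetate by log2 0.42 (SE 0.11, adjusted p = 0.0349). The ATP-hydrolysing subunit Atp6v1a and the accessory genes Atp6ap1 and Atp6ap2 passed in none of the 3.

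Of the 2 proteases, 0 passed in the 3 conditions. Lgmn had 3468, 3573, 3166 and 3473 CPM in 5xFAD GF+acetate, against 3620, 3643, 3587 and 3635 CPM in WT GF+acetate. It had 3023, 2710 and 2783 CPM in 5xFAD GF, against 3281, 3291 and 3562 CPM in WT GF, and 3207, 2927, 3676 and 2884 CPM in 5xFAD SPF, against 3971, 3883, 3940 and 3920 CPM in WT SPF. Every 5xFAD library lay below every WT library of its condition, with log2 differences of -0.09, -0.25 and -0.30 (adjusted p = 0.651, 0.195 and 0.0529). Without the library labelled SPF_FAD_2152, Lgmn was lower in SPF 5xFAD (log2 -0.38, SE 0.06, adjusted p = 0.00149).

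**Figure D2:**
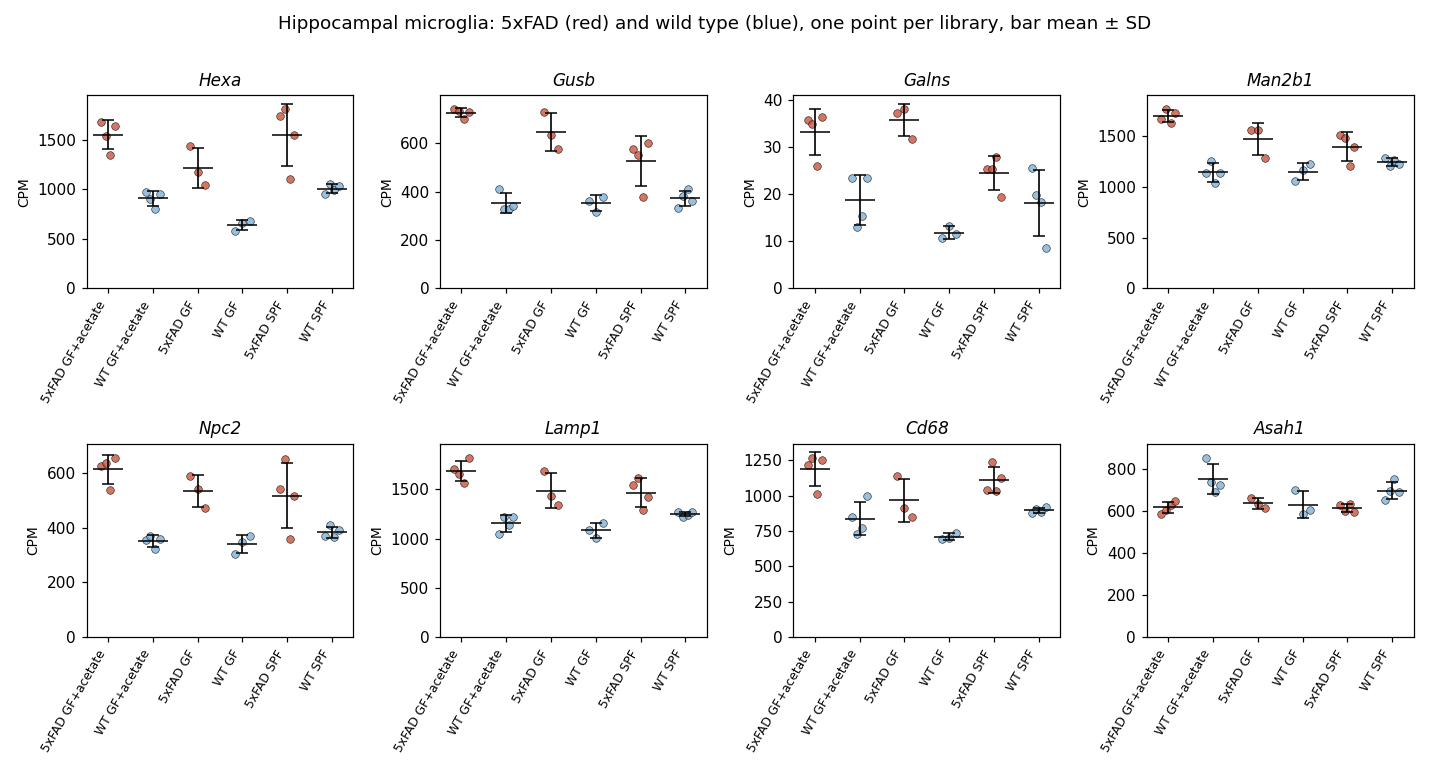
Levels in CPM of 8 genes in hippocampal microglia of 5xFAD (red) and WT (blue) mice under GF+acetate, GF and SPF, with 1 point per library and bars for the mean and SD. Hexa of 5xFAD lies above WT in every condition, the lowest SPF 5xFAD point (1103 CPM for Hexa, 377.4 CPM for Gusb, 360.7 CPM for Npc2) is the library labelled SPF_FAD_2152, and Asah1 is lower in 5xFAD GF+acetate.

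Without the library labelled SPF_FAD_2152, SPF mice had 3 members higher (Hexa, Gusb and Npc2) and 1 lower (Lgmn) in 5xFAD, against 1.18% higher and 0.747% lower of 16993 genes. The groups of the hippocampus fit share 1 gene filter, normalization and estimate of spread. Without that library Man2b1 joined the genes higher in GF (log2 0.36, SE 0.09, adjusted p = 0.0391; 7 members higher and 0 lower, against 0.871% and 0.3% of genes). With acetate, 12 were higher and 1 lower with it and without it (2.07% and 0.771% of genes without it). Across the 3 conditions, 20 of 38 log2 differences were positive in all and 6 were negative in all.

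The SPF calls depended on single libraries of both genotypes. Hexa lost its call without SPF_FAD_2140 or SPF_FAD_2142, or WT SPF library 2 or 3 (adjusted p 0.0522 to 0.0782). Gusb lost it without any 1 of the 8 libraries other than the one labelled SPF_FAD_2152 (adjusted p 0.075 to 0.183). The count was thus 0 without those 4 libraries taken singly, and 1 without SPF_FAD_2153, WT SPF 1 or WT SPF 4. In GF, the calls of Hexa, Gusb and Galns held without each library in turn. The count there was 3 without GF_FAD_526, GF_FAD_527 or GF_WT_530, and 3 without both hippocampus libraries with neutrophil markers. In GF+acetate the count of 13 was 8 without GFA_FAD_520 or GFA_WT_524 and 7 without GFA_FAD_522 or GFA_WT_525, while Hexa, Gusb, Naglu, Man2b1, Npc2, Lamp1 and Cd68 were called each time. Psap, Asah1 and Atp6v1b2 lost their calls in 7 of these 8 fits, Atp6v0c in 6, Fuca1 in 5 and Glb1 in 3. With 1 library left out, calls over all genes ran from 26 to 327 in SPF, 31 to 123 in GF and 252 to 379 in GF+acetate. The member counts of these fits are therefore not read on their own.

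Marker levels of other cells moved with genotype in places. The 6 border macrophage markers summed to 10.4 to 28 CPM in 5xFAD GF+acetate, against 0.0668 to 8.76 CPM in WT GF+acetate, with 0 of 6 at 0 in every library of the first and 2 of 6 (Lyve1 and Clec4n) in the second. They summed to 3.41 to 10.1 CPM in 5xFAD GF and 1.25 to 9.31 CPM in WT GF, where 3 of 6 and 4 of 6 were at 0. The 5 monocyte markers summed to 6.39 to 10.2 CPM in 5xFAD GF, against 2.28 to 6.27 CPM in WT GF, with Ly6c2 at 0 in both. The 5 astrocyte markers summed to 468 to 472 CPM in 5xFAD GF, against 315 to 432 CPM in WT GF, with 1 of 5 (Gja1) and 2 of 5 (Gfap and Gja1) at 0. The 10 microglial markers summed to 47700 to 50100 CPM in 5xFAD GF+acetate, against 53100 to 56300 CPM in WT GF+acetate, and to 41200 to 42600 CPM in 5xFAD GF, against 42800 to 45200 CPM in WT GF. Their part in the lysosomal differences was not tested.

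Whether the microbiota or acetate changed the genotype difference was tested as an interaction. For GF against SPF, 0 of 38 members passed (0% of all genes), with 4 at an unadjusted p under 0.05 (5.52% of all genes) and 0 by DESeq2 (0.0967%). Again 0 of 38 passed (0.00588%) without the library labelled SPF_FAD_2152, and 4 had an unadjusted p under 0.05. For GF+acetate against GF, 0 of 38 passed (0% of all genes), also with 4 at an unadjusted p under 0.05 (5.3%) and 0 by DESeq2 (0.0197%). The differing counts of 12, 6 and 2 higher genes are therefore not shown to reflect different responses. Galns had the largest estimate in the first interaction, log2 1.16 (SE 0.37, adjusted p = 0.799; adjusted p = 0.573 without that library), and Atp6v0c had the smallest p in the second, at log2 0.46 (SE 0.16, adjusted p = 0.895).

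A further list held 72 other lysosomal genes. Of 71 tested, 9 were higher and 0 lower in 5xFAD GF+acetate (1.83% and 0.674% of all genes). In GF 1 was higher and 0 lower (0.557% and 0.199%), and in SPF 1 was higher and 0 lower (0.363% and 0.205%). Grn, which encodes progranulin, had 3231, 3062, 3004 and 3080 CPM in 5xFAD GF+acetate, against 2036, 2008, 1675 and 1858 CPM in WT GF+acetate (log2 0.70, SE 0.09, adjusted p = 9.18e-05). It was also the gene called in GF (log2 0.52, SE 0.10, adjusted p = 0.0132). Dpp7, a dipeptidyl peptidase, rose by log2 1.29 (SE 0.20, adjusted p = 0.000532) and Plbd2 by log2 0.65 (SE 0.11, adjusted p = 0.00116) in 5xFAD GF+acetate. In SPF the gene was Naaa, an acylethanolamine amidase (log2 0.81, SE 0.17, adjusted p = 0.0305). In SPF, 5 were higher and 2 lower (1.18% and 0.747% of all genes) without the library labelled SPF_FAD_2152, and Naaa was among the 5 (adjusted p = 0.0102).

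Of the 12 members higher in 5xFAD GF+acetate, 11 had a promoter window and 3 (Glb1, Lamp1 and Naglu) held CACGTG. Hexa and Gusb, higher in all 3 conditions, held none in the windows shown.

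How the absence of bacteria bears on the lysosomal genes was asked by GF against SPF in 4 settings. Hexa was lower in GF cortex and GF WT hippocampus, and it was the single member called in each. Lgmn was higher in GF whole brain and was the single member called there. In 5xFAD hippocampus 0 of 38 passed. The counts were 0 higher and 1 lower in cortex (0.873% and 0.84% of 15113 genes), 0 and 1 in WT hippocampus (0.328% and 0.399%), 1 and 0 in whole brain (1.02% and 0.971% of 11332 genes) and 0 in 5xFAD (1.82% of genes in either direction).

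Hexa had 875.5, 809.7, 892.2 and 751.1 CPM in GF cortex, against 1282, 1095, 1128 and 1009 CPM in SPF cortex (log2 -0.44, SE 0.09, adjusted p = 0.0171). In WT hippocampus it had 580.1, 654.8 and 684.2 CPM in GF, against 957, 1049, 989.2 and 1037 CPM in SPF (log2 -0.64, SE 0.13, adjusted p = 0.0246). All GF libraries lay below all SPF libraries in both regions, which come largely from the same mice and are not independent repeats. Whole-brain Hexa did not differ beyond its spread, with 1598, 1688 and 1833 CPM as the lowest, median and highest of 5 GF libraries and 1756, 1730 and 1767 CPM in SPF (log2 -0.03, SE 0.05, adjusted p = 0.818).

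In 5xFAD hippocampus Hexa had 1436, 1176 and 1041 CPM in GF and 1737, 1808, 1103 and 1547 CPM in SPF, which overlapped through the library labelled SPF_FAD_2152 (log2 -0.33, SE 0.13, adjusted p = 0.273). Without it Hexa was lower in GF (log2 -0.47, SE 0.11, adjusted p = 0.0281; 0 members higher and 1 lower, against 0.906% and 0.971% of genes). Including that library, 7 members had an unadjusted p under 0.05 in 5xFAD (11.9% of all genes) and DESeq2 called 0 (4.92%). In cortex Hexa lost its call without GF_WT_529 or GF_WT_532 (adjusted p = 0.0598 and 0.0646), and 4 members were lower without SPF library 4. With 1 cortex library left out, calls over all genes ran from 124 to 379, so the count of 4 is not read on its own. In WT hippocampus it lost its call without GF_WT_529 or GF_WT_530, or SPF library 2 or 4 (adjusted p 0.0639 to 0.124). In cortex the 6 border macrophage markers summed to 7.9 to 11.2 CPM in GF, against 20.2 to 34.8 CPM in SPF, with 2 of 6 (Lyve1 and Clec4n) and 3 of 6 (also Cd163) at 0 throughout. In WT hippocampus they summed to 1.25 to 9.31 CPM in GF, against 11.6 to 26.9 CPM in SPF, with 4 of 6 (Cd163, Lyve1, Pf4 and Clec4n) and 1 of 6 (Lyve1) at 0 throughout. The 10 microglial markers summed to 45600 to 50000 CPM in GF cortex, against 50600 to 64800 CPM in SPF cortex, and to 42800 to 45200 CPM in GF WT hippocampus, against 53700 to 58300 CPM in SPF. In WT hippocampus the 5 astrocyte markers summed to 315 to 432 CPM in GF, against 232 to 304 CPM in SPF, with 2 of 5 (Gfap and Gja1) and 1 of 5 (Gfap) at 0. The 6 oligodendrocyte markers summed to 146 to 152 CPM in GF and 155 to 171 CPM in SPF there, with 0 of 6 at 0. The 4 B-cell markers summed to 387 to 561 CPM in GF and 570 to 639 CPM in SPF there, with the defining gene Ms4a1 at 0 in both. In 5xFAD hippocampus the astrocyte markers summed to 468 to 472 CPM in GF, against 237 to 308 CPM in SPF, and the microglial markers to 41200 to 42600 CPM in GF, against 43400 to 54800 CPM in SPF. Border macrophage markers in 5xFAD hippocampus summed to 3.41 to 10.1 CPM in GF, against 13.9 to 29 CPM in SPF. Of these, 3 of 6 (Cd163, Lyve1 and Clec4n) were at 0 throughout in GF and 0 of 6 in SPF. In whole brain the ranges of these lists overlapped. Their part in the lysosomal differences was not tested.

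Lgmn had a lowest, median and highest value of 5448, 5728 and 5848 CPM over 5 GF whole-brain libraries, against 4791, 4911 and 5126 CPM in the 3 SPF libraries. The groups did not overlap, and the difference was small (log2 0.20, SE 0.04, adjusted p = 0.0137). It did not pass without SPF 1 or SPF 3 (adjusted p = 0.0938 and 0.0723), and 2 members were higher without GF 2. With 1 whole-brain library left out, calls over all genes ran from 83 to 242, so the count of 2 is not read on its own. In mice of 16 weeks Lgmn was not called, with log2 -0.06 (adjusted p = 0.847) in cortex, -0.20 (0.271) in WT hippocampus and -0.15 (0.475) in 5xFAD hippocampus (-0.07 without the library labelled SPF_FAD_2152). Age, brain region and count table differ between these sets and cannot be told apart.

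In WT hippocampus, 33 of 38 log2 differences between GF and SPF were negative, with a median of -0.19 against 0.00 over all genes, although 1 passed. The 4 membrane glycoproteins ran from -0.32 (Cd68) to -0.18, and 11 of 38 had every GF library below every SPF library, against 6.23% of 17063 genes. Cd68 had 693.6, 697.8 and 738.4 CPM in GF, against 878.9, 902.3, 882.8 and 918.5 CPM in SPF (log2 -0.32, SE 0.11, adjusted p = 0.209). The median was -0.06 in cortex, 0.06 in whole brain and -0.01 in 5xFAD hippocampus, or -0.04 there without the library labelled SPF_FAD_2152.

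Of the other lysosomal genes, Pla2g15, a lysosomal phospholipase, was lower in GF in each of the 4 settings, by log2 -0.50 (SE 0.11, adjusted p = 0.0303) in cortex, -0.49 (SE 0.11, adjusted p = 0.0316) in WT hippocampus, -0.52 (SE 0.11, adjusted p = 0.01) in 5xFAD hippocampus and -0.23 (SE 0.05, adjusted p = 0.0483) in whole brain. It had 642.3, 584.3, 727.3 and 680.7 CPM in GF cortex, against 1135, 962.2, 923.3 and 709.7 CPM in SPF cortex. These ranges overlapped through SPF 4. Cortex and WT hippocampus share most of their mice, so the 4 settings are not all independent. Acp2, a lysosomal acid phosphatase, was lower in GF cortex (log2 -0.38, SE 0.09, adjusted p = 0.0462) and GF whole brain (log2 -0.27, SE 0.06, adjusted p = 0.032). In all, 0 of 70 were higher and 3 lower in cortex (0.873% and 0.84% of all genes), and 0 and 2 of 71 in WT hippocampus (0.328% and 0.399%). The counts were 3 and 3 of 71 in 5xFAD hippocampus (1.82% in either direction) and 2 and 4 of 69 in whole brain (1.02% and 0.971%). There were 2 and 3 in 5xFAD hippocampus (0.906% and 0.971% of all genes) without the library labelled SPF_FAD_2152, with Pla2g15 at log2 -0.46 (adjusted p = 0.031).

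**Figure D3:**
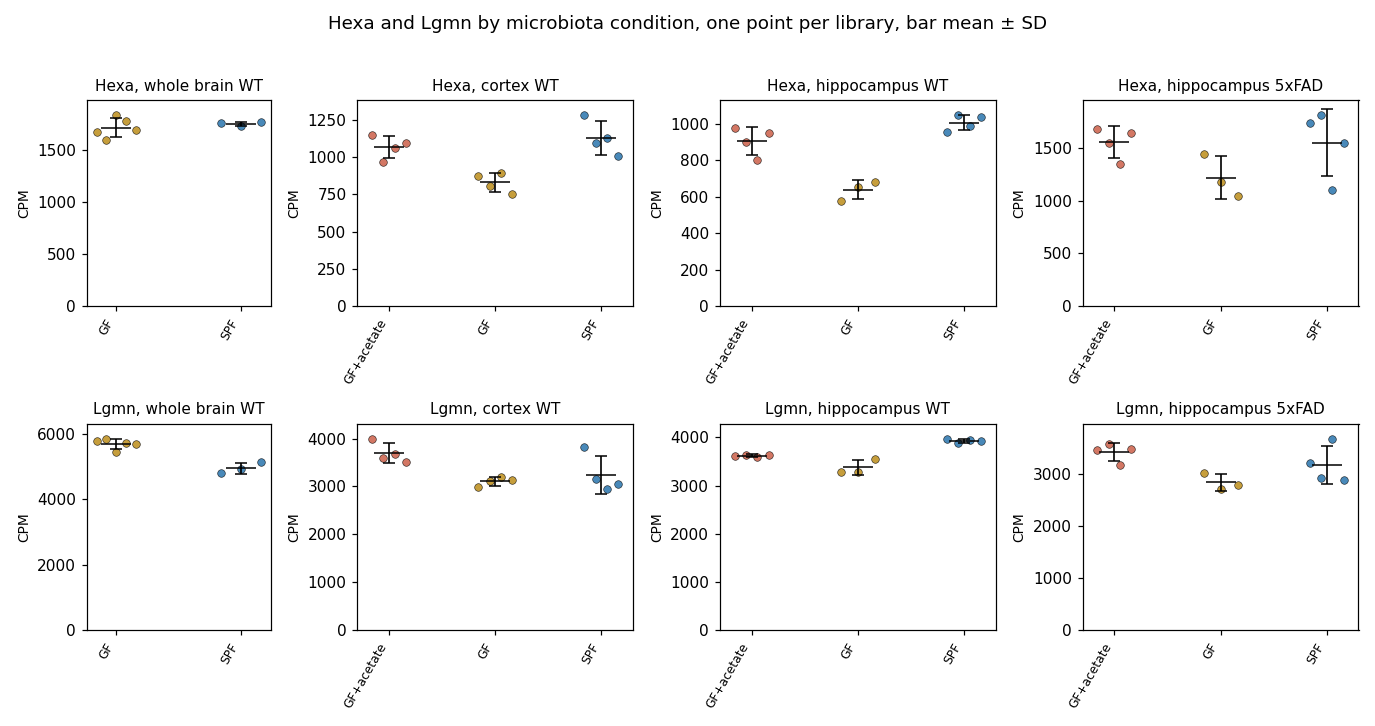
Hexa (upper panels) and Lgmn (lower panels) in CPM by microbiota condition in whole brain, cortex, WT hippocampus and 5xFAD hippocampus, with 1 point per library and bars for the mean and SD. Hexa is lower in GF than in SPF in cortex and WT hippocampus, and Lgmn is higher in GF than in SPF in whole brain.

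What acetate did in germ-free mice was asked by GF+acetate against GF, a comparison that shares its GF libraries with the one above. The test called 0 of 38 members in cortex (0.973% of all genes), 0 in WT hippocampus (0.492%) and 0 in 5xFAD hippocampus (0.082%). At an unadjusted p under 0.05 there were 9, 7 and 8 members (11.3%, 11.7% and 7.54% of all genes), and DESeq2 called 1, 2 and 1 (3.86%, 2.44% and 1.9%). Hexa had the smallest adjusted p in cortex and WT hippocampus, regions taken largely from the same mice. It had 1147, 965.2, 1064 and 1092 CPM in GF+acetate cortex, against 875.5, 809.7, 892.2 and 751.1 CPM in GF cortex (log2 0.36, SE 0.09, adjusted p = 0.0709), with no overlap.

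In WT hippocampus Hexa had 975.7, 900.6, 804.1 and 951.2 CPM in GF+acetate and 580.1, 654.8 and 684.2 CPM in GF, again with no overlap (log2 0.50, SE 0.13, adjusted p = 0.0886). The library labelled SPF_FAD_2152 is in neither group, but it enters this test through the shared gene filter, normalization and spread. Without it Hexa passed (log2 0.50, SE 0.10, adjusted p = 0.0309; 1 member higher and 0 lower, against 0.335% and 0.312% of genes). Lamp2 had 713.1, 736.5, 683.6 and 811.4 CPM in WT GF+acetate and 608.4, 581.3 and 487.4 CPM in WT GF (log2 0.39, SE 0.10, adjusted p = 0.101). In 5xFAD hippocampus 35 of 38 log2 differences were positive with a median of 0.15, against 0.01 over all genes. There Lgmn had 3468, 3573, 3166 and 3473 CPM in GF+acetate and 3023, 2710 and 2783 CPM in GF (log2 0.25, SE 0.08, adjusted p = 0.284).

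Marker levels also moved with acetate. The microglial markers summed to 54300 to 59500 CPM in GF+acetate cortex, against 45600 to 50000 CPM in GF cortex. They summed to 53100 to 56300 CPM in WT GF+acetate hippocampus, against 42800 to 45200 CPM in WT GF, and to 47700 to 50100 CPM in 5xFAD GF+acetate, against 41200 to 42600 CPM in 5xFAD GF. The groups did not overlap in any of the 3 settings. Astrocyte markers summed to 231 to 326 CPM in GF+acetate cortex, against 353 to 469 CPM in GF cortex (0 of 5 at 0 in both), and to 227 to 344 CPM in 5xFAD GF+acetate (0 of 5 at 0), against 468 to 472 CPM in 5xFAD GF. Border macrophage markers summed to 10.4 to 28 CPM in 5xFAD GF+acetate, against 3.41 to 10.1 CPM in 5xFAD GF. Oligodendrocyte markers summed to 183 to 204 CPM in GF+acetate cortex, against 152 to 176 CPM in GF cortex, and to 150 to 177 CPM in 5xFAD GF+acetate, against 141 to 148 CPM in 5xFAD GF. B-cell markers summed to 511 to 667 CPM in 5xFAD GF+acetate, against 352 to 474 CPM in 5xFAD GF, with Ms4a1 at 0 in both. The part of these markers in the values of the lysosomal genes was not tested.

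Against SPF, GF+acetate mice had 0 of 38 members called in cortex (0.364% of all genes), in WT hippocampus (0.123%) and in 5xFAD hippocampus (0.0527%). Unadjusted p was under 0.05 for 1, 5 and 8 members (7.03%, 8.03% and 6.72% of all genes), and DESeq2 called 0, 1 and 0 (0.771%, 0.521% and 0.576%). Without the library labelled SPF_FAD_2152, 0 were called in 5xFAD hippocampus (0.053%). Hexa had log2 -0.08 (SE 0.09, adjusted p = 0.94) in cortex, -0.14 (SE 0.12, adjusted p = 0.842) in WT hippocampus and 0.00 (SE 0.12, adjusted p = 1) in 5xFAD hippocampus, where it was -0.13 (SE 0.10, adjusted p = 0.911) without that library. Of the pump, Atp6v0c in WT hippocampus had 81.72, 92.35, 70.04 and 78.62 CPM in GF+acetate and 109.2, 120.7, 110.6 and 115 CPM in SPF. These did not overlap, and Atp6v0c did not pass (log2 -0.49, SE 0.11, adjusted p = 0.0813). Gusb in 5xFAD had 739.8, 733.4, 701.7 and 730 CPM in GF+acetate and 575.4, 550.2, 377.4 and 601.8 CPM in SPF (log2 0.46, SE 0.12, adjusted p = 0.191), and a log2 difference of 0.33 (SE 0.10, adjusted p = 0.257) without that library. Border macrophage markers summed to 0.0668 to 8.76 CPM in WT GF+acetate hippocampus, against 11.6 to 26.9 CPM in SPF, with 2 of 6 and 1 of 6 at 0. In cortex they summed to 9.56 to 13 CPM, against 20.2 to 34.8 CPM in SPF, with 2 of 6 and 3 of 6 at 0. Oligodendrocyte markers in WT hippocampus summed to 139 to 153 CPM, against 155 to 171 CPM in SPF. In 5xFAD both lists overlapped. The part of these markers was not tested.

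Of the other lysosomal genes, 0 of 70 were higher and 2 lower with acetate than in GF cortex (0.973% of all genes in either direction). They were Fnip1, a partner of folliculin (log2 -0.55, SE 0.12, adjusted p = 0.0284), and Galc, galactosylceramidase (log2 -0.83, SE 0.19, adjusted p = 0.0388). Of 71 tested in hippocampus, edgeR called 0 in WT (0.492% of all genes) and 0 in 5xFAD (0.082%). At an unadjusted p under 0.05 there were 17 in WT and 15 in 5xFAD (11.7% and 7.54% of all genes). DESeq2 called 2 and 1 (2.44% and 1.9%).

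**Figure D4:**
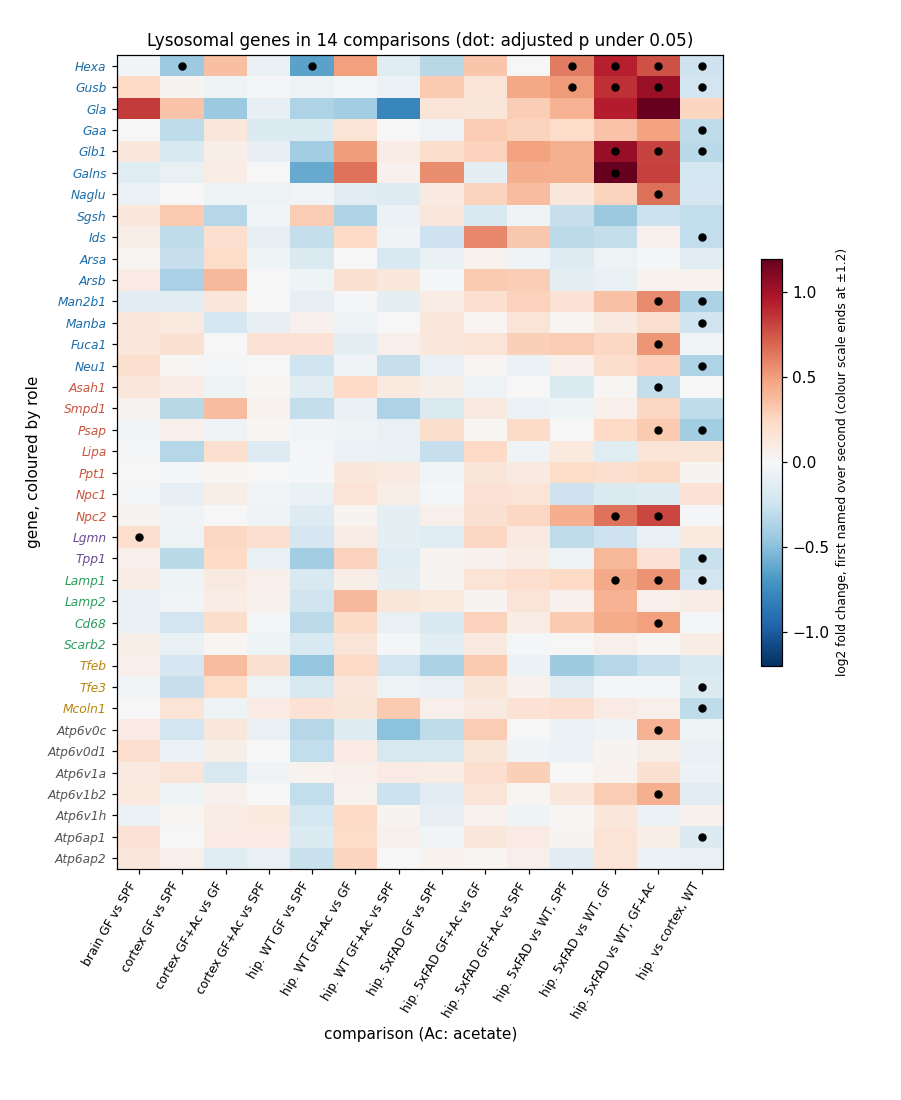
Fitted log2 differences of the 38 tested genes (from top to bottom by role, names coloured as in the plot of levels per kilobase) in 14 comparisons, the first named over the second, on a colour scale that ends at ±1.2. Black dots mark an adjusted p under 0.05 and gather in the 5xFAD and region columns.

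How hippocampal and cortical microglia differ was asked in 11 WT animals with both regions, with the animal as a block and the 3 microbiota conditions averaged. Of 38 members, 0 were higher and 14 lower in hippocampus, against 4.43% higher and 8.06% lower of 16706 genes. The median log2 difference was -0.15, against -0.04 over all genes. By role, 8 of 15 glycan hydrolases, 1 of 7 lipid genes, 1 of 2 proteases and 1 of 4 membrane glycoproteins were lower. So were Tfe3 and Mcoln1 among the 3 regulators, and 1 of 7 pump genes.

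Psap ranged from 1928 to 2455 CPM in hippocampus (median 2085) and from 2078 to 3373 CPM in cortex (median 2827), and was lower in hippocampus in 11 of 11 animals (log2 -0.41, SE 0.04, adjusted p = 8.39e-05). Man2b1 ranged from 1040 to 1289 CPM in hippocampus (median 1205) and from 1279 to 1882 CPM in cortex (median 1539), lower in 11 of 11 (log2 -0.38, SE 0.05, adjusted p = 0.000378). Neu1, a sialidase, ranged from 78.84 to 123.1 CPM in hippocampus (median 90.75) and from 106.1 to 147.6 CPM in cortex (median 125.9). It too was lower in 11 of 11 animals (log2 -0.37, SE 0.06, adjusted p = 0.00191).

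Lamp1 was the membrane glycoprotein called, at 1007 to 1269 CPM in hippocampus (median 1221) and 1241 to 1443 CPM in cortex (median 1359), lower in 11 of 11 animals (log2 -0.23, SE 0.04, adjusted p = 0.00247). Gusb (log2 -0.23), Hexa (-0.25), Gaa, the acid alpha-glucosidase that digests glycogen (-0.30), Manba, beta-mannosidase (-0.23), Ids, iduronate sulfatase (-0.30), and Glb1 (-0.32) were the other glycan hydrolases called. Tpp1, a tripeptidyl peptidase, was the protease (log2 -0.26, adjusted p = 0.00475). The number of animals lower in hippocampus was 11 of 11 for Gusb and Manba, 10 of 11 for Hexa, Glb1, Ids and Tpp1, and 9 of 11 for Gaa.

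Mcoln1 ranged from 109.2 to 183.4 CPM in hippocampus (median 129.2) and from 132 to 188.3 CPM in cortex (median 158.8), and was lower in hippocampus in 10 of 11 animals (log2 -0.31, SE 0.06, adjusted p = 0.00457). Tfe3 ranged from 217.9 to 300 CPM in hippocampus (median 258.1) and from 251.3 to 367.3 CPM in cortex (median 300.8), lower in 11 of 11 (log2 -0.17, SE 0.05, adjusted p = 0.0261). Tfeb, at 44.26 to 75.98 CPM in hippocampus and 51.49 to 82.84 CPM in cortex, did not pass (log2 -0.18, SE 0.09, adjusted p = 0.186). Atp6ap1 was the pump gene called (log2 -0.17, SE 0.04, adjusted p = 0.0126, lower in 10 of 11).

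Not all members followed. Lipa, acid lipase, was higher in hippocampus in 10 of 11 animals and Lgmn in 9 of 11, and neither passed (log2 0.14, adjusted p = 0.0685, and log2 0.12, adjusted p = 0.0552). Cd68, Npc2 and Asah1 had log2 differences of -0.02, -0.01 and 0.00. Leaving out 1 animal at a time, Glb1 lost its call in 6 of 11 fits, Ids in 7 and Tfe3 in 6. Manba and Atp6ap1 lost it in 1 each, without GF_WT_530, where the count was at its lowest, 9. Calls over all genes ran from 1242 to 2061 in these fits. In GF+acetate mice the oligodendrocyte markers summed to 139 to 153 CPM in hippocampus, against 183 to 204 CPM in cortex, with 0 of 6 at 0. Border macrophage markers in these mice summed to 0.0668 to 8.76 CPM in hippocampus, against 9.56 to 13 CPM in cortex, with 2 of 6 at 0 in each. The border macrophage ranges of the regions overlapped in GF and in SPF mice. In GF mice the microglial markers summed to 42800 to 45200 CPM in hippocampus, against 45600 to 50000 CPM in cortex. The part of these markers was not tested.

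Of the 70 other lysosomal genes tested, 7 were higher and 22 lower in hippocampus, against 4.43% and 8.06% of all genes. Among those lower were Grn (log2 -0.34, SE 0.04, adjusted p = 8.39e-05) and the sorting receptor Sort1 (log2 -0.49, SE 0.07, adjusted p = 0.000508). All 14 members lower in hippocampus had a promoter window, and Gaa, Glb1, Lamp1 and Mcoln1 (4 of 14) held CACGTG. The region difference was not shown to depend on the microbiota: 0 of 38 passed for GF against SPF and 0 for GF+acetate against GF (0% of all genes in both), with 1 and 4 at an unadjusted p under 0.05 by edgeR (5.39% and 4.38% of all genes) and 0 and 0 by DESeq2 (0.537% and 0.00652%).

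**Figure D5:**
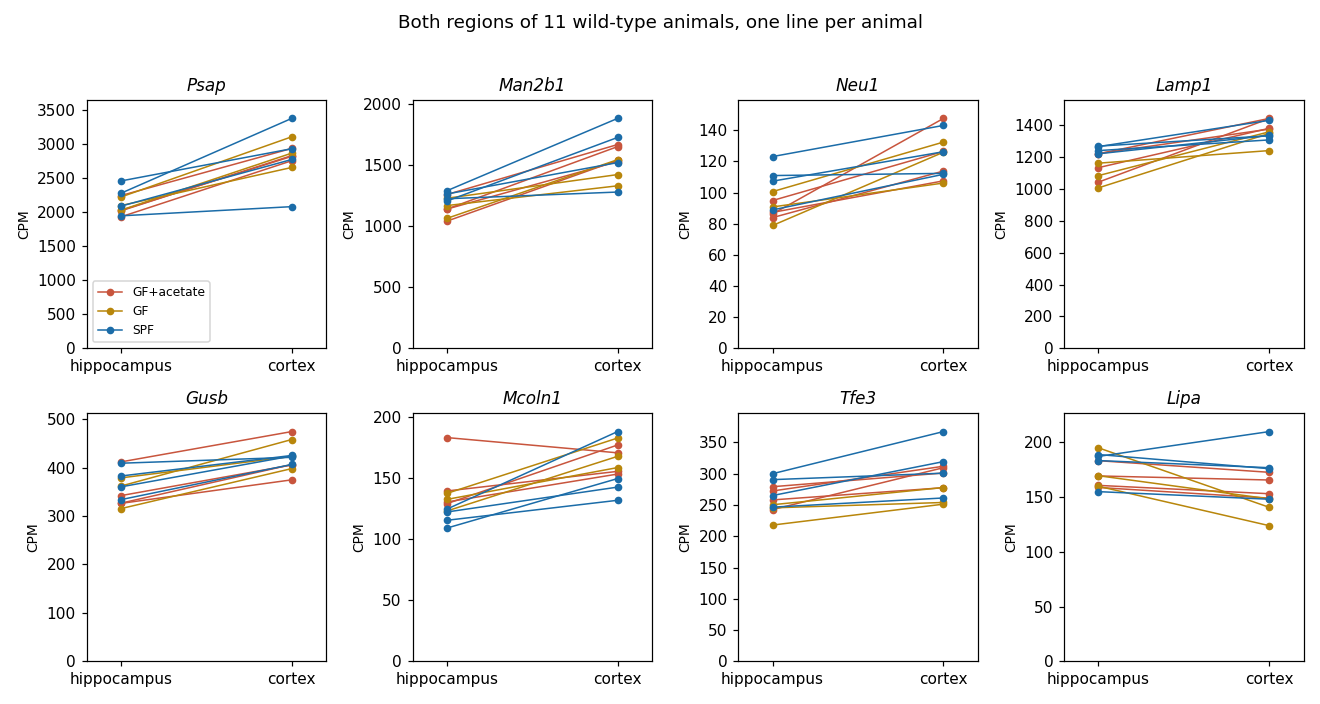
Levels in CPM of 8 genes in hippocampus (left) and cortex (right) of 11 WT animals, with 1 line per animal coloured by microbiota condition. Psap, Man2b1, Neu1, Lamp1, Gusb and Tfe3 are lower in hippocampus in 11 of 11 animals and Mcoln1 in 10, while Lipa, shown as a gene that did not pass, is higher in 10.

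Over all 18 comparisons, 23 of 39 members were called at least once and 16 never, with 38 calls in 7 comparisons. The 15 tested members without a call were Arsa, Arsb, Gla, Sgsh, Smpd1, Lipa, Ppt1, Npc1, Lamp2, Scarb2, Tfeb, Atp6v0d1, Atp6v1a, Atp6v1h and Atp6ap2, and their smallest adjusted p ran from 0.0579 (Sgsh) to 0.706 (Atp6v1a). Several members overlap a gene on the other strand, and strand use in counting is not given in the sources used here. The partner was far lower for Hexa (Tmem202, at most 3.66 CPM) and Lamp1 (Grtp1, at most 13.23 CPM). Cap1 overlaps Ppt1 at 60.85 to 165.2 CPM. In cortex and hippocampus, Rmc1 overlaps Npc1 at 41.44 to 76.08 CPM, where Npc1 itself had 133.53 to 214 CPM. Gm20388 overlaps Galns, and no level of it is available here. These levels of overlapping pairs are unscaled.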

How the data were processed

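Microglial RNA-seq was deposited by the authors as raw counts per gene symbol and library in 2 tables, one of 8 whole-brain libraries and one of 34 cortex and hippocampus libraries. Per the submitters' processing notes, STAR 2.5.2b and featureCounts 1.5.1 were used with a build named GRCh38, whereas the symbols are mouse ones, so no coordinates were taken from the tables. The files give no other step. Groups follow the titles and characteristics, and animal numbers in the titles pair hippocampus and cortex (same-animal r 0.027 to 0.115, over 0.1 in 4 of 11 pairs).

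Genes passed filterByExpr (minimum count 10), and edgeR 4.0.16 (R 4.3.3, limma 3.58.1) fitted TMM-normalized quasi-likelihood models in 4 fits: whole brain (8 libraries), cortex (12), hippocampus (22), and the 22 libraries of 11 animals with both regions, with animal as a block. P-values were Benjamini-Hochberg adjusted over all genes tested, with a threshold of 0.05. The test was also run on simulated counts, drawn independently per library, with planted changes larger than most differences called here. That run does not check the p-values against the spread between real libraries. CPM values were TMM-scaled separately for whole brain and for the other table. GENCODE exon lengths gave levels per kilobase, and promoters came from RefSeq (GRCm38.p6). Symbols matched the annotation for 95.7% of whole-brain genes and 93.5% of the others.

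Alternatives were DESeq2 1.42.0, RLE size factors, no filter, a mean of at least 5 CPM, only the groups compared, leaving out each library, and the block. Leaving out libraries with few genes, few counts or neutrophil markers, or the one labelled SPF_FAD_2152, was added after seeing the data. The members and lists were chosen with earlier results of these data known. Values were named for all called members (at most 4 per comparison in full) and for Hexa, Cd68, Lamp1, Lamp2, Psap, Lgmn, Npc2, Tfeb, Tfe3, Mcoln1, Atp6v0d2 and Atp6v0c, and for at most 3 other lysosomal genes per comparison. Some other lysosomal genes that this rule names are not reported here. No pair of replicates agreed within counting noise (chi-square per degree of freedom 10.09 to 60.25 over 61 pairs). Separate animals are named by number in the 16-week groups. For whole brain the labels name none, so there p-values measure the spread between those libraries.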

Additional observations from a re-analysis of the deposited data

Results flagged for a closer look

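For 17 genes, each gene was examined in each group of 4 or 5 libraries, which gave 134 sets of values. Of these sets, 8 held a library far from the others, where chance alone gives about 1 in 20. The flags of Atp6v0d2 were fixed by the rule, as set out below, so the count is not weighed against that share. The libraries below are listed for their values only. Tfeb had 61.5 CPM in GFA_FAD_519 of hippocampus, against 44.87 to 46.89 CPM in the other 3 libraries of that group, and 69.23 CPM in hippocampal GFA_WT_523, against 55.71 to 57.35 CPM. Galns had 25.94 CPM in hippocampal GFA_FAD_521, against 34.79 to 36.38 CPM in the others of its group. Npc2 had 398.5 CPM in cortex SPF library 2, against 358.1 to 360.7 CPM in the others.

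Atp6v0d2 was the other gene, always as 1 library above 0 in a group otherwise at 0. The rule flags any such group whatever the size of the value, so these flags carry no weight. It had 0.04867 CPM in cortex GFA_WT_524, 0.1844 CPM in cortex SPF library 4, 0.09478 CPM in hippocampal SPF_FAD_2153 and 0.5344 CPM in hippocampal GFA_WT_525.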

How the results depend on the processing

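Of 38 calls of single members, 604 values under other settings gave 478 with the call kept, 126 with it lost and 0 with the direction reversed. With DESeq2 the members called numbered 3 in whole brain GF against SPF (1 by edgeR), 3 in cortex GF against SPF (1), 1 in cortex GF+acetate against GF (0), 2 in WT hippocampus GF against SPF (1), 2 in WT hippocampus GF+acetate against GF (0), 1 in WT hippocampus GF+acetate against SPF (0), 1 in 5xFAD GF+acetate against GF (0), 4 in 5xFAD against WT SPF (2) and 10 in 5xFAD against WT GF (6). With a mean of at least 5 CPM, 2 were called in whole brain and 2 in WT hippocampus GF against SPF. With only the groups compared, 0 were called in cortex GF against SPF, 2 in cortex GF+acetate against GF and 0 in 5xFAD against WT SPF. Without both libraries with few genes detected, 0 were called in WT hippocampus GF against SPF. Without the libraries with neutrophil markers, 0 were called there, 0 in 5xFAD against WT SPF and 3 in 5xFAD against WT GF. Without the shallow libraries, 0 were called in 5xFAD against WT SPF. Without the library labelled SPF_FAD_2152, 1 was called in WT hippocampus GF+acetate against GF. The cause of these differences was not tested. DESeq2 called more of all genes too, at 3.86% against 0.973% by edgeR in cortex GF+acetate against GF. In hippocampus GF+acetate against GF it called 2.44% against 0.492% in WT and 1.9% against 0.082% in 5xFAD. In WT hippocampus GF+acetate against SPF it called 0.521% against 0.123%. Shares of all genes for the other settings listed are not given here, so those counts are not read as results about the members.

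Leaving out 1 library at a time gave 0 to 2 calls in whole brain, 0 to 4 in cortex GF against SPF, 0 to 1 in WT hippocampus GF against SPF, 0 to 1 in 5xFAD GF against SPF, 0 to 4 in 5xFAD against WT SPF, 3 to 7 in GF and 7 to 10 in GF+acetate. It gave 9 to 15 between regions and 0 in the other comparisons. The totals over all genes moved as well, from 83 to 242 in whole brain and from 124 to 379 in cortex GF against SPF. For GF against SPF in hippocampus they ran from 25 to 109 in WT and from 107 to 319 in 5xFAD. For 5xFAD against WT they ran from 26 to 327 in SPF, 31 to 123 in GF and 252 to 379 in GF+acetate. Between regions they ran from 1242 to 2061. The replicate block left 0 calls in whole brain, where same-numbered libraries did not deviate together (r -0.037 to -0.003), so the numbers are not taken as pairs. That fit held only the libraries numbered 1, 3 and 4 in each group, so the block and the smaller set of libraries cannot be told apart. Without the replicate block, 9 members were called between regions, against 14 with the animal paired.

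Atp6v0d2, at 0 in most libraries, had too few counts to test. Gla had low counts, and its SE was 0.59 on the log2 scale in 5xFAD GF+acetate against WT GF+acetate (log2 1.5, adjusted p = 0.218 by edgeR). With 3 to 5 libraries a group, a gene that did not pass is not shown to be equal.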

Other observations

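Gla, the alpha-galactosidase that cuts globo-series lipids, had a fitted log2 difference of 1.5 between 5xFAD and WT GF+acetate, the highest of the 38 members there, and did not pass in edgeR's test (adjusted p = 0.218). Grn was the other lysosomal gene higher in whole-brain GF than in SPF (log2 0.22, SE 0.05, adjusted p = 0.0374), besides Cd63 (log2 0.41, adjusted p = 0.0277). Galc was lower in GF+acetate than in GF cortex (log2 -0.83, adjusted p = 0.0388) and higher in GF than in SPF 5xFAD hippocampus (log2 0.99, SE 0.25, adjusted p = 0.043), a call lost without the library labelled SPF_FAD_2152 (log2 0.91, adjusted p = 0.101). These comparisons come from separate regions and genotypes, and the difference between them was not tested.

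Psap split the 5 GF whole-brain libraries, with 1915 and 1920 CPM in GF 1 and 2 and 2863 to 3272 CPM in GF 3, 4 and 5, against 2416, 2737 and 2826 CPM in SPF. Hexa had a lowest, median and highest value of 1598, 1688 and 1833 CPM over the same GF libraries and showed no such gap.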
